A study of Oncorhynchus mykiss with 18 samples.

Results

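Meiotic DNA double-strand break (DSB) hotspots of the rainbow trout RT-52 lie mostly near the ends of chromosomes, and 276 of them lie in the interior of the autosomes. The interior was set as the stretch with the hotspot centre at 20% to under 80% of the length of a chromosome, whatever the value or the marks of the hotspot. These 276 were set against the 1028 outer hotspots, those in the first and the last 10% of each of the 31 autosomes, and the other 446 autosomal hotspots lay between these zones. The RT-52 list held 1924 hotspots, of which 1869 were on assembled chromosomes and 1750 on autosomes. The 119 hotspots of chromosome Y and the 55 on unplaced sequence were left out of the comparison.

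RT-52 is a male of the strain INRA-AUT with testes at maturation stage IV, and it carries the Prdm9 alleles 1 and 2. Its hotspots came from 2 ChIP replicates for the recombinase DMC1 followed by sequencing of single-stranded DNA (DMC1-SSDS), precipitated with the antibodies DMC1-R1 and DMC1-GP. The other fish were TAC-1, with the alleles 1 and 5, and TAC-3, with the alleles 2 and 6. Both were males of the same strain at stage III, each with 2 replicates of DMC1 (antibody DMC1-R1 in both), H3K4me3 and H3K36me3. No histone list of RT-52 was analysed here, so histone marks at its hotspots were read from fish that share 1 Prdm9 allele with it. Every list combines the 2 replicates, pooled for DMC1 and as peaks kept in both for the histone marks. No value below therefore has an error between replicates. Genotype, individual and, for RT-52, stage and antibody cannot be told apart. Fisher's tests treat hotspots as units. Their p-values describe the hotspots of 1 animal and not a difference between animals.

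PRDM9 is a histone methyltransferase with an array of zinc fingers that recognises DNA motifs and places H3K4me3 and H3K36me3 on the nucleosomes around them. In the mouse and in humans, DSBs made by SPO11 form at such sites, and the break ends are resected to single strands on which DMC1 assembles to search for the homologous chromosome. H3K4me3 also marks active promoters, and H3K36me3 also covers the bodies of transcribed genes. In male salmonids, crossovers are known to concentrate towards the chromosome ends.

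Interior hotspots were sparse. They made up 15.8% of the autosomal hotspots on 60% of the autosomal length, while the outer zones, 20% of the length, held 58.7%. Their density was 0.211 per Mb (95% Poisson interval 0.186 to 0.237, 1311 Mb), against 2.35 per Mb (2.21 to 2.50, 437 Mb) in the outer zones. The stretches between held 1.02 per Mb. These intervals cover counting error only. In successive bins of 10% of chromosome length, the counts were 502, 227, 89, 35, 26, 29, 29, 68, 219 and 526, so that counts within the interior were lowest between 30% and 70% of the length and highest beside its limits. Of the interior hotspots, 150 lay between 20% and 50% of the length and 126 between 50% and 80%.

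**Figure D1:**
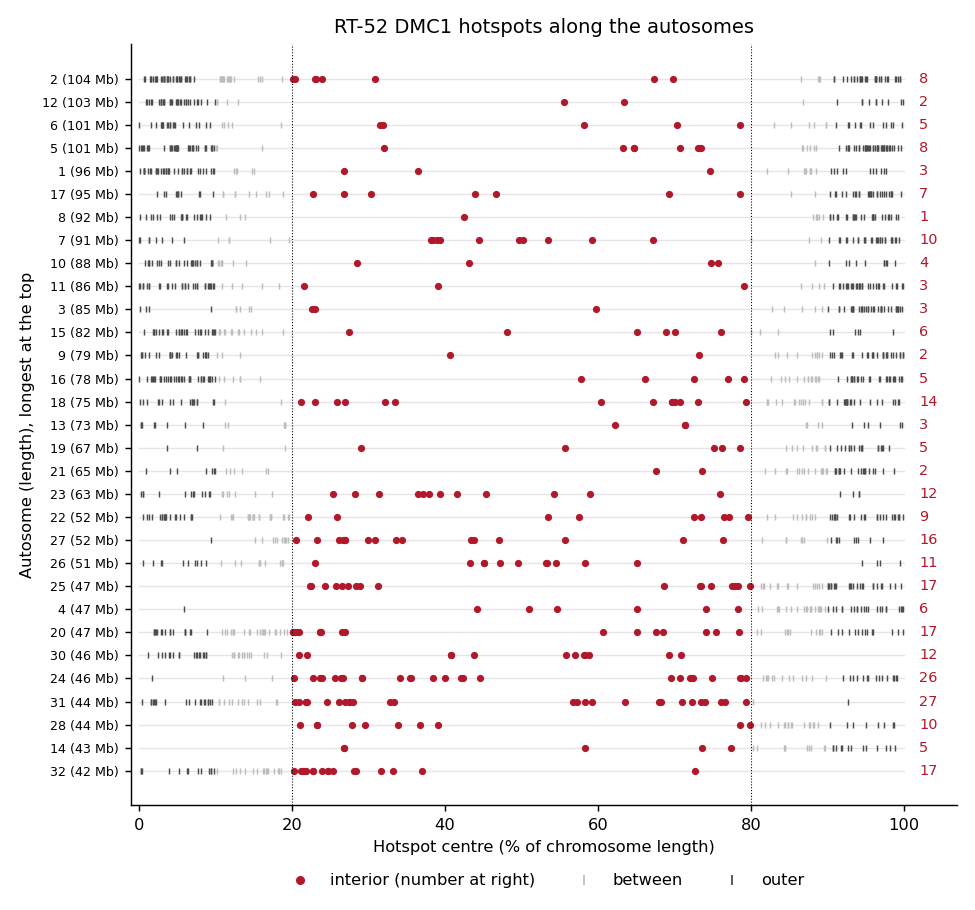
Each row is an autosome (longest at the top, length in Mb) and each mark the centre of an RT-52 DMC1 hotspot, in percent of chromosome length: red points are the 276 interior hotspots, with their number at the right, light ticks the 446 between the zones and dark ticks the 1028 of the outer zones. Dotted lines mark 20% and 80%. Red points are most frequent on the short autosomes in the lower rows, and on several of these only 1 end is dense in dark ticks.

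The number of interior hotspots differed widely among autosomes. Chromosome 8 held 1, and chromosomes 9, 12 and 21 held 2 each. Chromosome 31 held 27 (1.02 per Mb of its interior) and chromosome 24 held 26 (0.944 per Mb), which was 44.3% and 44.1% of all hotspots on these chromosomes. Chromosomes 20, 25 and 32 followed with 17 each. Without chromosomes 24 and 31 the density of the interior was 0.177 per Mb.

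Short autosomes carried most of the interior hotspots. The 12 autosomes under 60 Mb (41.8 to 52.5 Mb) held 173 of the 276 (62.7%), at 0.514 per Mb (0.440 to 0.596), and the 19 autosomes of 62.9 to 104 Mb held 103, at 0.106 per Mb (0.0863 to 0.128). These intervals do not overlap, but they cover counting error only and not the spread among autosomes. Single autosomes held 5 to 27 interior hotspots in the short class and 1 to 14 in the long class. The difference was not tested. In the outer zones the densities were 2.09 per Mb (1.84 to 2.38) on the short autosomes and 2.44 per Mb (2.28 to 2.62) on the long ones. Over the 31 autosomes, interior density correlated with chromosome length at a Pearson r of -0.726 and a Spearman rho of -0.745. Without the 2 autosomes farthest from the median length these were -0.713 and -0.755. Outer density and length had an r of 0.295 and a rho of 0.353. Autosomes share 1 list and 1 animal, so these correlations are descriptions. The limit of 60 Mb was chosen after the data were seen and falls in a gap in the lengths, since no autosome measures between 52.5 and 62.9 Mb.

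**Figure D2:**
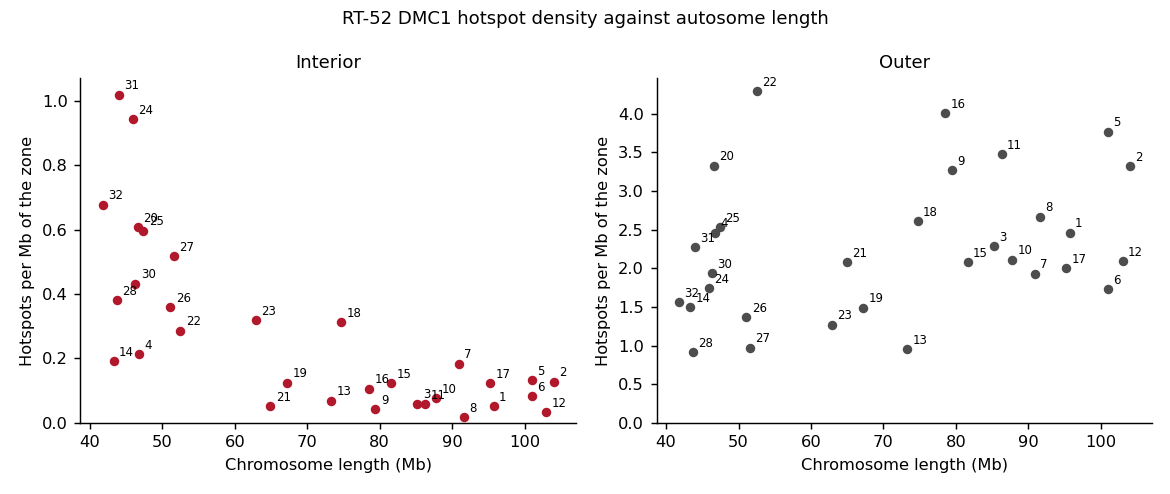
Each point is an autosome, labelled with its number, with its length in Mb on the x axis and RT-52 hotspots per Mb of the zone on the y axis, for the interior (left) and the outer zones (right; the y scale differs). Interior density reaches 1.02 per Mb on chromosome 31 and is at most 0.318 per Mb (chromosome 23) on the autosomes of 62.9 Mb or more.

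Because the zones are set in percent of length, the interior of a short chromosome begins nearer to its end. The interior hotspots lay 8.49 to 45.7 Mb from the nearest end (median 16.4 Mb), against a median of 3.67 Mb in the outer zones. At a matched distance of 10 to 15 Mb from an end, the autosomes under 60 Mb held 0.80 hotspots per Mb and the longer ones 0.70. At 15 to 20 Mb the densities were 0.258 and 0.195, and at 20 to 25 Mb 0.264 and 0.158. Under 5 Mb from an end they were 2.03 and 2.52. At each of these distances the Poisson intervals of the short and the long autosomes overlapped, those under 5 Mb from an end only just (1.79 to 2.31 and 2.30 to 2.75). The short autosomes had the higher density at each distance from 10 to 25 Mb, and the lower at 5 to 10 Mb (1.92 and 2.09) and under 5 Mb. Distance was taken from either end alike, although on 9 short autosomes 1 outer zone held at most 1 hotspot. Whether distance accounts for the difference in interior density was not tested.

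**Figure D3:**
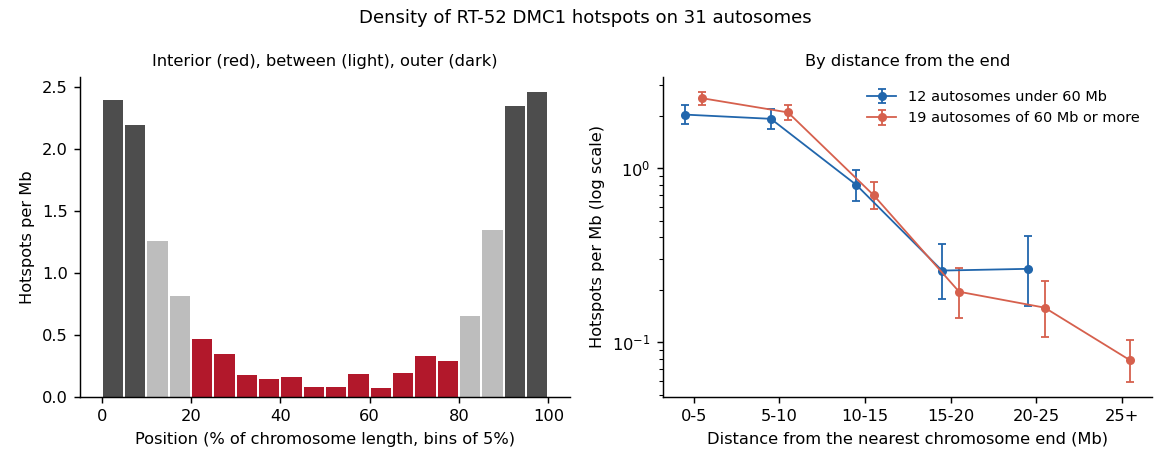
Left, RT-52 hotspots per Mb in bins of 5% of chromosome length over the 31 autosomes, with interior bins in red. Right, hotspots per Mb (log scale) against distance from the nearest end in Mb, for the 12 autosomes under 60 Mb (blue) and the 19 longer ones (orange), with 95% Poisson intervals; bins with under 20 Mb of sequence are not drawn. The curves run close together from 5 to 20 Mb.

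The ends were not alike on all chromosomes. On 9 autosomes, all under 60 Mb (4, 14, 24, 25, 27, 28, 30, 31 and 32), 1 of the outer zones held at most 1 hotspot. Chromosomes 14, 25 and 28 had none in the first 20% of their length, and chromosomes 30 and 32 had none in the last 20%. These 9 autosomes held 136 of the 276 interior hotspots, and the other 22 held 140. Chromosome 24 had 1 hotspot in its first 10% and 15 in its last 10%, with 17 interior hotspots before and 9 after its midpoint. On chromosome 32, with 13 hotspots in the first 10%, 16 of the 17 interior hotspots lay before the midpoint. On chromosome 28, with 8 in the last 10% and none in the first, 8 of 10 interior hotspots lay before the midpoint, away from the dense end. These chromosomes were picked by their hotspot counts, so the counts are a description.

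Interior hotspots lay farther apart than outer ones. Spacing follows from how many hotspots a zone holds, so the distances are a description and were not set against the density. The nearest hotspot on either side was at a median of 537 kb (95% interval 408 to 672; quartiles 151 and 1862 kb), against 104 kb in the outer zones (94.6 to 120.2). Only 50 interior hotspots (18.1%) had a neighbour within 100 kb, against 501 (48.7%) of the outer ones, and 31 had none within 5 Mb, against 2. The median distance was 356 kb on the autosomes under 60 Mb and 1972 kb on the longer ones. The longest runs of interior without a hotspot were 37.8 Mb on chromosome 2, 36.6 Mb on chromosome 12 and 36.5 Mb on chromosome 1. Chromosome 27 had the shortest longest run, 7.97 Mb.

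The most isolated hotspot was the only interior one of chromosome 8, at chr8:38935203-38937670 (USDA_OmykA_1.1, as for all coordinates here), 26168 kb from its nearest neighbour. It lay in adgb, which encodes androglobin, a globin known in mammals from the testis and from ciliated cells, and it had a value of 53. At the other end of the scale, 12 interior hotspots had a neighbour within 10 kb. The closest pair was chr13:52319002-52320533 and chr13:52320049-52321664, with centres 1.09 kb apart, overlapping ends and values of 70 and -5, both inside LOC110485216. Altogether 11 genes held 2 interior hotspots each. They include sema6bb, a semaphorin gene (guidance of axons and cells in vertebrates), on chromosome 5 with hotspots of value 40 and 37 lying 52.2 kb apart, and mmp14b, a membrane-bound matrix metalloproteinase gene, on chromosome 28 with values of 51 and 40 lying 4.28 kb apart.

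Interior hotspots had lower peak values than outer ones. The value is the number in the last column of the authors' list, which their pipeline normalised by the regions beside each peak. It is read here as relative DMC1 signal within the RT-52 list. The median was 62.5 in the interior (95% interval 57 to 68; lowest -5, quartiles 43.8 and 93.8, highest 595), against 109.5 in the outer zones (102 to 116; lowest -180, quartiles 64 and 204, highest 2872). In the same successive bins, the median value was 104, 91, 67, 56, 52, 60, 54, 68.5, 88 and 113. The distributions overlapped throughout the interior range. On 23 of the 27 autosomes with at least 3 hotspots in each zone the interior median was the lower (median difference -52.5), a two-sided exact sign test over autosomes giving p = 3.11e-04 and an adjusted p of 6.21e-04 over 2 such tests. It was higher by 7 on chromosome 23, by 29 on chromosome 26, by 1 on chromosome 30 and by 15 on chromosome 31. On the autosomes under 60 Mb alone the median was lower on 9 of 12 (median difference -50.5), which did not pass the exact sign test (adjusted p = 0.146).

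**Figure D4:**
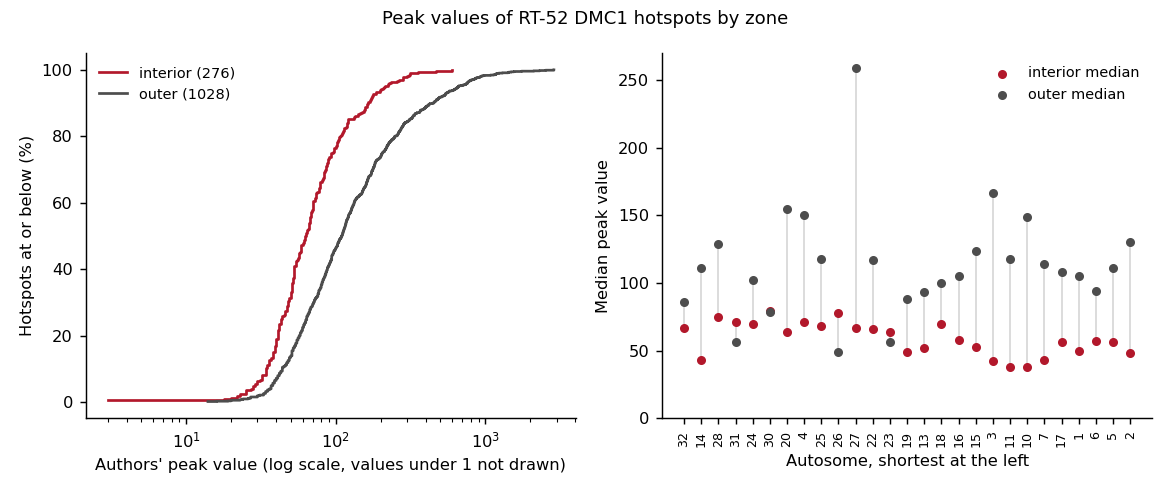
Left, the percent of hotspots at or below each value of the authors' list (log scale) for the 276 interior (red) and the 1028 outer (grey) hotspots. Right, the median value of both zones on each of the 27 autosomes with at least 3 hotspots in each, shortest at the left; lines join the medians of 1 autosome. The red curve lies to the left, and red points lie under grey ones on 23 of the 27 autosomes.

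High values were rare in the interior. A value of 100 or more was reached by 65 interior hotspots (23.6%), against 554 (53.9%) of the outer ones. Ranks were taken over all 1924 RT-52 hotspots, with chromosome Y and unplaced sequence included. Among the 100 highest values, 1 was interior and 69 were outer, and among the 500 highest, 23 were interior and 318 outer. The interior thus held 15.8% of the autosomal hotspots and 8.08% of their summed value, while the outer zones held 69.6% of the summed value. Within the interior, the median value was 69 on the autosomes under 60 Mb and 51 on the longer ones, against 110 and 109 in the outer zones of the same classes. Width differed less. The median was 1719 bp (1616 to 1806) in the interior and 1861 bp (1818 to 1922) in the outer zones, and the interior median was the smaller on 17 of 27 autosomes (exact sign test, adjusted p = 0.248).

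The 10 highest interior values were all on autosomes under 60 Mb, with 3 on chromosome 24, 2 on chromosome 31 and 1 each on chromosomes 14, 20, 26, 30 and 32. The highest, 595, was at chr20:9402376-9405075, at 20.2% of the length and so just inside the interior limit, in LOC110498931. A TAC-1 H3K4me3 peak (9401229 to 9403552, score 1312) overlapped this hotspot but ended before its centre, so it met only the edge of the central 400 bp. The hotspot had a neighbour 2.85 kb away of value 79. The next, 468, was at chr24:12261916-12265089, 23765 bp from the nearest gene, with TAC-3 peaks of both marks over it. The hotspot with the third value, 353, at chr14:33498528-33501351, lay at the boundary of LOC110487786 and met a TAC-1 hotspot of value 79, and no mark of either fish. Of the rest of the 10, those of value 312, 301, 282, 265 and 257 met no mark of either fish. That of 309 met H3K4me3 of TAC-1 alone, and that of 280 met both marks of TAC-3. The lowest values were -5 (chromosome 13, above), 3 at chr14:11631078-11632025, which was also the narrowest at 948 bp, and 18 at chr9:32313012-32314479. The hotspot of value 3 met peaks of both marks of TAC-1. The widest, chr31:33740593-33746310, measured 5718 bp and had a value of 197.

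The values beside the interior limits were mixed. Just inside 20% lay hotspots of value 41 (chromosome 2, 20.141%) and 595 (chromosome 20, 20.186%), and just outside it hotspots of 26 (chromosome 7, 19.690%) and 70 (chromosome 24, 19.999%). Just inside 80% the values were 90 (chromosome 25) and 108 (chromosome 28), and just outside it 114 (chromosome 15) and 30 (chromosome 7).

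Marks of the other fish were counted where a peak met the central 400 bp of a hotspot. H3K4me3 of TAC-1, which shares allele 1 with RT-52, was present at 97 interior hotspots (35.1%, 95% Wilson interval 29.8 to 40.9), against 249 outer ones (24.2%, 21.7 to 26.9), a difference of 10.9 percentage points (4.89 to 17.2; Fisher's exact test, two-sided, adjusted p = 0.00198 over the 10 shares compared). Over all 1924 hotspots this share was 27.5%. TAC-1 H3K4me3 peaks were also denser in the interior as a whole, where a window of this size placed at any position would meet one in 7.96% of positions, against 6.28% in the outer zones. The share at hotspots was 4.41 times that of positions in the interior and 3.86 times in the outer zones. At the 446 hotspots between the zones the share was 30.7%, and its ratio to positions, 4.49, was above that of the interior. The difference between interior and outer hotspots was 6.62 points with their whole length in place of the central window (46% and 39.4%, adjusted p = 0.107, Fisher's exact test). On the autosomes of 60 Mb or more it was 2.22 points (Fisher's exact test, adjusted p = 0.901). On those under 60 Mb it was 18.2 points (39.9% against 21.7%, Fisher's exact test, adjusted p = 0.00109). With chromosome as a stratum the adjusted p of the 10.9 points was 0.0153 (exact conditional test).

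H3K4me3 of TAC-3, which shares allele 2, was present at 63 interior hotspots (22.8%), against 225 outer ones (21.9%), with 22.9% over all hotspots. The difference of 0.939 points (-4.32 to 6.77) did not pass Fisher's exact test (adjusted p = 0.744), and its sign turned with the zone limits and with the overlap rule. Relative to positions in the zone, 3.13% and 2.26%, the ratios were 7.30 in the interior and 9.67 in the outer zones. The list of TAC-3 was shorter, with 50548 H3K4me3 peaks against 153665 in TAC-1, so that levels are not comparable between the fish.

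H3K36me3 of TAC-1 was present at 55 interior hotspots (19.9%), against 181 outer ones (17.6%), with 18.6% over all hotspots (difference 2.32 points, -2.61 to 7.89; Fisher's exact test, adjusted p = 0.474). H3K36me3 of TAC-3 was present at 56 (20.3%), against 161 (15.7%), with 17.3% over all hotspots (4.63 points, -0.290 to 10.2; Fisher's exact test, adjusted p = 0.115). Both marks of TAC-1 stood together at 51 interior hotspots (18.5%), against 137 outer ones (13.3%; 15.3% over all; Fisher's exact test, adjusted p = 0.0846). Both marks of TAC-3 stood together at 47 (17%), against 120 (11.7%; 13.9% over all; Fisher's exact test, adjusted p = 0.0839). Neither of these passed after adjustment, with differences of 5.15 (0.460 to 10.5) and 5.36 points (0.857 to 10.6). A window at any position would meet H3K36me3 of TAC-1 in 9.32% of interior and 6.48% of outer positions. For TAC-3 these shares were 4.36% and 2.76%. The H3K36me3 share at hotspots was 2.14 (interior) and 2.72 (outer) times that of positions with TAC-1. With TAC-3 it was 4.65 and 5.67 times, so both ratios were lower in the interior. Between the zones H3K36me3 was present at 21.1% (TAC-1) and 18.4% (TAC-3) of hotspots, with ratios of 2.72 and 5.25. The ratios were not tested.

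**Figure D5:**
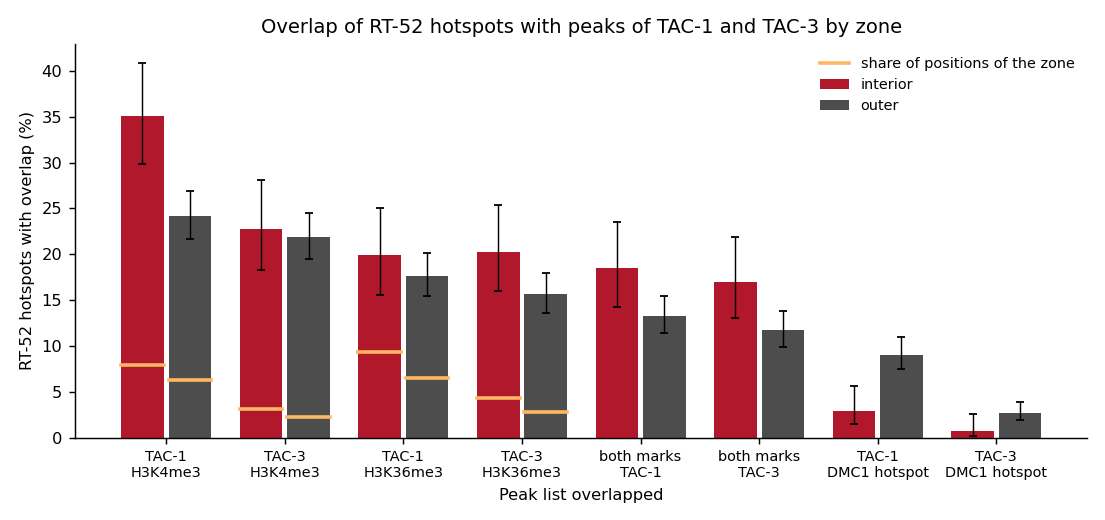
Bars give the percent of RT-52 hotspots whose central 400 bp met a peak of the list named under them, for interior (red) and outer (grey) hotspots, with 95% Wilson intervals. Orange lines give, for single marks, the percent of all positions of the zone at which such a window would meet a peak. The bars differ beyond the adjusted threshold for H3K4me3 of TAC-1 and for DMC1 hotspots of TAC-1.

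H3K4me3 was seldom present in both fish at the same hotspot, in the interior (2.54%) as over all hotspots (2.65%). It was present in TAC-1 only at 90 interior hotspots (32.6%), in TAC-3 only at 56 (20.3%), in both at 7 (2.54%) and in neither at 123 (44.6%). Over all 1924 hotspots these shares were 24.8%, 20.3%, 2.65% and 52.2%. H3K36me3 was present in TAC-1 only at 44 (15.9%), in TAC-3 only at 45 (16.3%) and in both at 11 (3.99%). The H3K36me3 shares were 13.4%, 11.5% and 4.18% in the outer zones and 14.5%, 13.1% and 4.11% over all hotspots. For H3K4me3 in the outer zones the counts were 220 (21.4%), 196 (19.1%), 29 (2.82%) and 583 (56.7%). H3K4me3 in at least 1 of the fish was thus found at 153 interior hotspots (55.4%), against 445 outer ones (43.3%), with 47.8% over all hotspots and 53.4% of the 446 between the zones, which is near to the interior share. No mark in either fish was found at 121 (43.8%) and 539 (52.4%), with 49.2% over all hotspots. These categories were not tested. Of the 7 interior hotspots with H3K4me3 in both fish, 5 lay within 1 kb of a gene boundary, against 11 of the 90 with TAC-1 only, 9 of the 56 with TAC-3 only and 16 of the 123 with neither. In the outer zones 9 of the 29 hotspots with H3K4me3 in both fish (31%) did so, and the interior class is too small to set against them. A single interior one, chr27:13474220-13475795 in LOC110507606 with a value of 74, carried both marks in both fish.

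H3K36me3 accompanied H3K4me3 of TAC-1 at 51 of 97 interior hotspots (52.6%) and at 137 of 249 outer ones (55%). With TAC-3 the shares were 47 of 63 (74.6%, 62.7 to 83.7) and 120 of 225 (53.3%, 46.8 to 59.7). Over all hotspots they were 55.6% with TAC-1 and 60.5% with TAC-3, and between the zones 60.6% and 65.4%. These shares were not tested. The H3K4me3 peaks at interior hotspots had higher median scores and widths than those at outer ones, and the H3K36me3 peaks had lower median scores and larger widths, none of which was tested. TAC-1 H3K4me3 peaks in the interior had a median score of 584 and a median width of 1472 bp, against 452 and 1002 bp at outer hotspots and 250 and 367 bp in the whole list. For TAC-3 H3K4me3 the medians were 308 and 1517 bp in the interior, 250 and 1016 bp in the outer zones and 192 and 757 bp in the whole list. For H3K36me3 the medians were 383 and 1708 bp in the interior and 397 and 1092 bp in the outer zones with TAC-1, and 175 and 2252 bp in the interior and 186 and 1542 bp in the outer zones with TAC-3. A wide peak meets a window of 400 bp more often than a narrow one does, so widths at hotspots are not like for like with those of the whole list. The centres of the H3K4me3 peaks lay a median of 233 bp (TAC-1) and 182 bp (TAC-3) from the centres of the interior hotspots.

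Interior hotspots with H3K4me3 of TAC-1 had a median value of 73 (67 to 83), and those without it 55 (52 to 62). In the outer zones these medians were 106 (91 to 117) and 111 (102 to 118). For TAC-3 the medians were 67 (53 to 81) with and 61 (55 to 68) without in the interior, and 132 (113 to 163) with and 104 (94 to 112) without in the outer zones. By quartiles of the autosomal values (limits 58, 93 and 173), TAC-1 H3K4me3 was present at 24.8, 45.1, 45.7 and 34.8% of the interior hotspots, from 125, 82, 46 and 23 hotspots, against 26.9, 23.6, 25.3 and 22.0% of the outer ones. Only in the lowest quartile was the interior share under the outer one. These values were not tested.

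The single hotspots named next were picked by high value among those with both marks of a fish. Hotspots with no mark in either fish, 121 of the 276, are not among them. The highest value with both marks of TAC-1 was 222, at chr24:10856491-10859016, 1263 bp from LOC110503318. The hotspot chr27:13868508-13871435 (value 211) lay 3569 bp from rasa2, a Ras GTPase-activating protein gene, under TAC-1 peaks of H3K4me3 (score 450) and H3K36me3 (score 234) and none of TAC-3. The hotspot chr20:11111918-11113913 (value 200), inside gdh03, met both marks of TAC-1 and H3K36me3 of TAC-3. Among those with both marks of TAC-3, chr4:36650608-36653161 (value 173) lay inside nrxn3b, a neurexin gene (presynaptic adhesion), under an H3K4me3 peak of score 711 and an H3K36me3 peak of score 255, with no mark of TAC-1.

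Hotspots in common with TAC-1 were fewer in the interior. A DMC1 hotspot of TAC-1 met 8 interior hotspots (2.90%, 1.48 to 5.61), against 93 outer ones (9.05%, 7.44 to 11), with 8.78% over all hotspots. The difference was -6.15 points (-8.53 to -2.99; Fisher's exact test, adjusted p = 0.00198). The share met with TAC-3 was 2 of 276 (0.725%), against 28 of 1028 (2.72%; 2.29% over all; difference -2.0 points, -3.30 to 0.0557; Fisher's exact test, adjusted p = 0.115). Seen from the other lists, 8 of 96 interior hotspots of TAC-1 (8.33%) were also in RT-52, against 92 of its 333 outer ones (27.6%), and 2 of 51 of TAC-3 (3.92%), against 28 of 96 (29.2%). Fewer hotspots were there to meet in the interior. TAC-1 had 96 on 1311 Mb, against 333 on 437 Mb in the outer zones, and TAC-3 had 51 against 96. The shares in common were not set against these densities, so they do not show whether sharing was lower than the densities allow. By quartile of value, from low to high, the share in common with TAC-1 was 1.60, 1.22, 4.35 and 13.0% in the interior, against 2.78, 3.56, 6.32 and 19.5% in the outer zones. Among hotspots above the median value the difference was -6.40 points (adjusted p = 0.227, Fisher's exact test), and on the autosomes of 60 Mb or more it was -6.51 (adjusted p = 0.169), neither of which passed.

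The 8 interior hotspots in common with TAC-1 had values of 32 to 353 in RT-52. The highest were chr14:33498528-33501351 (353, against 79 for the TAC-1 hotspot), chr24:34399409-34402860 in LOC110503418 (282, against 192) and chr27:39366616-39369931 (177, against 159). At chr31:10843527-10845332, with a value of 119 against 39, the hotspot lay in nlgn3a, a neuroligin gene (postsynaptic adhesion). Values are normalised within each list, so such pairs cannot be compared as levels. Of the 8, those at chr24:33050235-33051946 and chr32:9508008-9509299 met H3K4me3 of TAC-1, and the rest did not. Of the 2 in common with TAC-3, chr20:35117300-35118879 in LOC110499391 (41, against 49) also met both marks of TAC-3. The other, chr15:39289559-39291088, had the same start and end in all 3 fish. Its value was 32 in the list of RT-52, 55 in that of TAC-1 and 53 in that of TAC-3. It lay 174467 bp from the nearest gene and met no mark of either fish. As a peak common to TAC-1 and TAC-3 it belongs to a class that the study doubts as DSB hotspots.

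No difference between the zones in position relative to genes passed the test. The central 400 bp met a gene at 172 interior hotspots (62.3%), against 655 outer ones (63.7%), with 63.2% over the 1869 hotspots on chromosomes. The difference was -1.40 points (-7.92 to 4.87; Fisher's exact test, adjusted p = 0.744). A window of this size placed at any position would meet a gene in 59% of positions in the interior and in 56.6% in the outer zones. The central 400 bp came within 1 kb of a gene boundary at 41 interior hotspots (14.9%), against 119 outer ones (11.6%), with 12.6% over the 1869 (3.28 points, -0.986 to 8.30; Fisher's exact test, adjusted p = 0.212). The share of positions with such a window was 9.47% in the interior and 7.61% in the outer zones. For 166 of the 172 the gene nearest to the centre was protein-coding, and for 4 it was a lncRNA gene (LOC118938723, LOC110503670, LOC110506607 and LOC110507620). The centres of the other 104 lay a median of 15.5 kb from the nearest gene, and at most 304 kb.

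The same zones were counted in the other fish. TAC-1 had 96 of its 573 autosomal hotspots in the interior (16.8%), with a median value of 46, against 61 in the outer zones, and TAC-3 had 51 of 189 (27.0%), with 53 against 59. Their interior hotspots differed from those of RT-52 in the marks. H3K4me3 of TAC-1 was present at 7 of the 96 interior hotspots of TAC-1 (7.29%, 3.58 to 14.3), against 137 of its 333 outer ones (41.1%). H3K4me3 of TAC-3 was present at 2 of 51 (3.92%), against 32 of 96 (33.3%). A window at any interior position would meet H3K4me3 of TAC-1 in 7.96% of positions and of TAC-3 in 3.13%. Both interior shares were thus near those of positions. In the outer zones the shares of positions were 6.28% and 2.26%. The interior lists of TAC-1 and TAC-3 had 21 peaks in common, 21.9% of the 96 and 41.2% of the 51, although these fish share no Prdm9 allele, against 18 in the outer zones (5.41% of 333 and 18.8% of 96). Both fish were at stage III and had the antibody DMC1-R1 in both replicates, and the part of stage and antibody in this was not tested. The study treats peaks common to these fish as possible artefacts because of their strand pattern. The lists hold no strand, so this was not analysed here, and the interior counts of TAC-1 and TAC-3 include such peaks. Without the shared peaks, own H3K4me3 was present at 7 of 75 (9.33%) and 2 of 30 (6.67%) interior hotspots, against 136 of 315 (43.2%) and 32 of 78 (41.0%) outer ones.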

How the data were processed

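DMC1-SSDS and H3K4me3 or H3K36me3 ChIP-seq of testes from 3 rainbow trout were read from 7 deposited peak lists. For DMC1, the authors mapped single-stranded fragments to USDA_OmykA_1.1 with the hotSSDS pipeline (BWA, MACS2). They kept peaks of the pooled replicates that passed an irreproducible discovery rate threshold, and recentred them. The deposited score of a peak is their value normalised by adjacent regions. The column is unnamed and its scale is not given in the sources used here. For the histone marks, the authors mapped reads with BWA 0.7.17-r1188, called narrow peaks with MACS2 2.2.7.1 for each replicate against input, merged peaks within 1 kb, whose deposited score is the mean of the merged ones, and kept those that overlapped between replicates.

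Chromosome numbers were assigned by the overlap of TAC-3 H3K4me3 peaks with RefSeq gene boundaries of the same build, and chromosome lengths are the largest peak end of any list. A mark or shared hotspot was an overlap of at least 1 bp with the central 400 bp (of both hotspots, where these were compared), and so was lying in a gene or within 1 kb of its boundary. Shares were compared by two-sided Fisher's exact tests (Benjamini-Hochberg over 10), and values and widths by exact sign tests over autosomes with at least 3 hotspots in each zone (SciPy 1.17.1), at an adjusted threshold of 0.05. Intervals are 95% Wilson for shares, Newcombe for differences, Poisson for densities and binomial order statistics for medians. Spacing, density and correlations are descriptions. Named hotspots are the 10 highest and 3 lowest values, the widest, narrowest, most isolated and closest, the 5 highest of each shared or doubly marked class and those beside the zone limits; genes with 2 hotspots, the autosomes with an empty end and hotspots marked in both fish were picked once their values were known. The zones, members and lists were chosen with earlier results of these data known. The tests were checked on simulated hotspots that were independent and equal in number on each chromosome. That check does not cover neighbouring hotspots that meet the same peak. No sequence was read.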

Additional observations from a re-analysis of the deposited data

Results flagged for a closer look

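The difference between interior and outer hotspots in H3K4me3 of TAC-1 had opposite signs for RT-52 and TAC-1 hotspots. With the H3K4me3 peaks of TAC-1, the share in the interior minus that in the outer zones was 10.9 percentage points for RT-52 hotspots and -33.8 points for the hotspots of TAC-1 itself. With the peaks of TAC-3 it was 0.939 points for RT-52 hotspots and -29.4 points for those of TAC-3, where the RT-52 value did not pass its test and changed sign in 4 of 11 alternatives. For TAC-1 H3K4me3 the RT-52 difference was 2.22 points on the autosomes of 60 Mb or more, and did not pass. On the autosomes under 60 Mb it was 18.2 points. The interior hotspots of TAC-1 and TAC-3 include peaks common to both fish. Without these peaks, own H3K4me3 was present at 9.33% of interior and 43.2% of outer hotspots of TAC-1. For TAC-3 the shares were 6.67% and 41.0%. A window at any interior position would meet H3K4me3 of TAC-1 in 7.96% of positions and of TAC-3 in 3.13%. The difference between the values of RT-52 and those of the other fish was not tested. There is 1 pooled list for each fish. All 3 fish differ in Prdm9 genotype, and RT-52 differs from the other fish in stage and antibody as well. These cannot be told apart.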

How the results depend on the processing

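Each alternative setting was applied to several results. Of the 136 pairs of a result and a setting, 93 planned and 43 added after seeing the data, 108 left the result on its side of the threshold or within its interval. With the whole length of the hotspots, the differences were 6.62 percentage points for TAC-1 H3K4me3 (no longer passing), -1.68 for TAC-3 H3K4me3 and 0.492 for lying inside a gene (both of the opposite sign). With the interior set from 25% to 75%, TAC-3 H3K4me3 turned to -0.126 points and the density was 0.177 per Mb. With chromosome Y put back, differences of 5.65 points (TAC-3 H3K36me3), 4.98 (both marks of TAC-1), 6.48 (both marks of TAC-3) and -2.19 (TAC-3 hotspots) passed, and the density was 0.241 per Mb. Among hotspots above the median value, the difference for TAC-1 hotspots was -6.40 points and did not pass, spacing was 1124 kb and density 0.0549 per Mb. With at least 50% of the window covered, both marks of TAC-3 differed by 5.64 points and passed. The rest were added after seeing the data. Without chromosomes 24 and 31, TAC-3 H3K4me3 was at -1.05 points, spacing at 765 kb and density at 0.177 per Mb. On the autosomes under 60 Mb, both marks of TAC-3 (9.44 points) passed, lying inside a gene turned to 5.98 points, the value difference of -50.5 did not pass, spacing was 356 kb and density 0.514 per Mb. On those of 60 Mb or more, TAC-1 H3K4me3 (2.22 points) and TAC-1 hotspots (-6.51 points) did not pass, TAC-3 H3K4me3 and TAC-1 H3K36me3 turned to -5.48 and -3.22 points, spacing was 1972 kb and density 0.106 per Mb. The cause of these changes was not tested.

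No paired analysis was possible because each list combines both replicates, so that leaving out a replicate was not possible either. The lists hold no read depth. Precision is set by the number of hotspots, 276 against 1028, and by the 2 or 8 that are in common with another fish.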

Other observations

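Chromosome Y, left out above, was set aside as the chromosome with the most RT-52 hotspots, so a high density goes with that choice. It had 47 of its 119 RT-52 hotspots in its interior (39.5%), at 1.64 per Mb. This density was higher than on any of the 31 autosomes. The median value of the 47 was 91, against 224 for the 41 in the outer zones of chromosome Y. H3K4me3 of TAC-1 was present at 15 of the 47 (31.9%) and that of TAC-3 at 16 (34.0%). The median distance to the nearest hotspot was 132 kb. Chromosome Y measured 47.7 Mb, within the range of the autosomes under 60 Mb.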
